A study of Mus musculus with 20 samples.

Results

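Binding of C/EBPβ was examined around 10 genes of the cell division cycle: the D-type cyclins Ccnd1, Ccnd2 and Ccnd3, the E-type cyclin Ccne1, the cyclin-dependent kinase inhibitors Cdkn1a (p21), Cdkn1b (p27) and Cdkn2c (p18), and Myc, E2f2 and Rb1. All peaks with a midpoint inside the span of one of these genes, or within 50 kb of it, were taken from 5 deposited peak lists. Peaks that overlapped by at least 1 bp were merged into sites. The 10 genes, of 21887 protein-coding genes, held 32 of the 23854 merged sites of the whole series. There was at least 1 site at 9 of the 10 genes, against 61.0% of all protein-coding genes, and none at Ccne1. The share was 75% among 64 other cell cycle genes described below. Both sets were chosen with earlier results of these data known. No site was shared by a pair of these genes.

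The peaks came from chromatin immunoprecipitation and sequencing (ChIP-seq) of 3T3-L1 cells, a mouse preadipocyte line. Every line carried a doxycycline (Dox) inducible, HA-tagged C/EBPβ of the LAP form, which was either wild type (WT) or mutated at its PARylation sites (Mut), the residues to which poly(ADP-ribose) is attached. The cells were growth-arrested by contact, 2 days past confluence, and received vehicle or 1 µg/ml Dox for 8 h. A further set of WT cells was given BYK204165 (BYK), an inhibitor of PARP enzymes, 1 h before Dox. The vehicle conditions are called uninduced WT and uninduced Mut here (WT -Dox and Mut -Dox in the figures), those with Dox alone induced WT and induced Mut (WT +Dox and Mut +Dox), and the last one inhibitor-treated WT (WT +Dox +BYK). Each has 2 ChIP and 2 input libraries but only 1 peak list with no replicate number. No difference between conditions can therefore be tested, the counts below carry no replicate error, and no list states its sequencing depth. The antibody was directed at C/EBPβ itself, not at the HA tag, so a peak in a list with Dox may come from the cell's own protein or from the induced one. The labels name no adipogenic hormone mixture and do not say whether the lines were clones or which residues were mutated, and peak lists hold no expression values with which to check the cell type.

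As background, growth-arrested 3T3-L1 preadipocytes that receive adipogenic hormones re-enter the cell cycle and divide before they differentiate, a phase called mitotic clonal expansion, and C/EBPβ is known to be needed for it. D-type cyclins with Cdk4 or Cdk6, and then cyclin E with Cdk2, phosphorylate the retinoblastoma protein encoded by Rb1, which releases E2F factors that switch on genes of DNA replication. The Cip/Kip inhibitors p21 and p27 and the INK4 inhibitor p18 hold these kinases back, and Myc drives growth and entry into the cycle.

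The lists differed in length, from 6898 peaks in uninduced Mut to 18371 in inhibitor-treated WT, with 10959 in uninduced WT, 12384 in induced WT and 17816 in induced Mut. The 10 genes held 16 sites in uninduced WT, 12 in uninduced Mut, 20 in induced WT, 24 in induced Mut and 22 in inhibitor-treated WT. These are 50.0%, 37.5%, 62.5%, 75.0% and 68.8% of their 32 sites. Of all sites in the series, 45.5% had a peak in uninduced WT, 28.8% in uninduced Mut, 51.5% in induced WT, 74.5% in induced Mut and 76.4% in inhibitor-treated WT. The order of the lists was the same for the 10 genes as for all sites, with an exception. Induced Mut had more sites than inhibitor-treated WT at the 10 genes. This turned round with scores above 100 (12 and 15 sites) and with the 6898 highest-scoring peaks of each list (8 and 11). It held under the other settings tried.

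**Figure D1:**
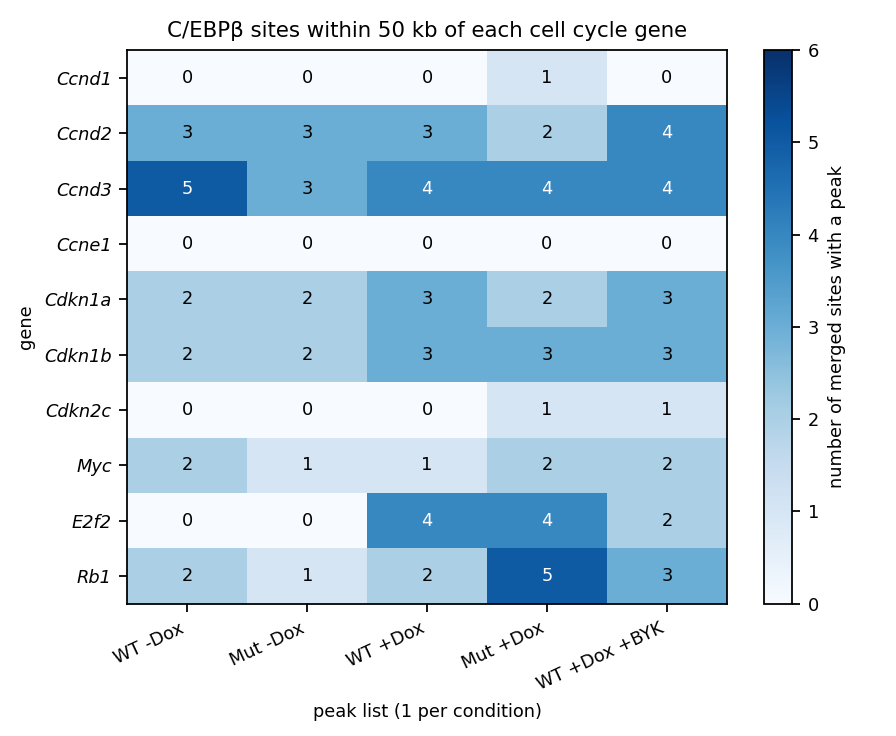
Number of merged C/EBPβ sites with a peak (cell value and colour) within 50 kb of each of 10 cell cycle genes (rows) in each of 5 peak lists (columns). E2f2 had 0 sites in both lists without Dox and 4, 4 and 2 in the 3 lists with Dox, while Ccne1 had 0 in all 5.

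A site lay directly over an annotated transcription start at Ccnd3, Cdkn1b and E2f2. The promoter table of RefSeq (build GRCm38.p6, the coordinates of mm10) held 10 start windows of 6 of the genes (Ccnd3, Ccne1, Cdkn1a, Cdkn1b, Cdkn2c and E2f2); Ccnd1, Ccnd2, Myc and Rb1 were not matched. A window runs from 250 bases before a start to 50 after it, and 3 of the 10 windows overlapped a peak, where 6.63% of all 32851 windows in the table did. By list, 1 of the 10 had a peak in uninduced WT (3.17% of all windows), 1 in uninduced Mut (2.16%), 3 in induced WT (3.81%), 1 in induced Mut (4.59%) and 1 in inhibitor-treated WT (4.79%). The single site of Cdkn2c lay over the start of its neighbour Faf1. The 250 bases before each of these 4 starts are shown because they lie wholly under peaks, at starts of 3 of the genes and at the one site of Cdkn2c. Each is written 5′ to 3′ on the strand of its gene, and all 4 lie on the plus strand. Capitals mark CCAAT, or, at Faf1, the letters of an E2F motif (the reverse complement of TTTGGCG) and an E-box (CACGTG).
Ccnd3, chr17:47593217-47593466: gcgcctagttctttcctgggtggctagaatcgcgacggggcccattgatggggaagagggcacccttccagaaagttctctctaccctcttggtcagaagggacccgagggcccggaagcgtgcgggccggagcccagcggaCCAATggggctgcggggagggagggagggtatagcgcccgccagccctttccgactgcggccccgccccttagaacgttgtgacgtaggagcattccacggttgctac
Cdkn1b, chr6:134920151-134920400: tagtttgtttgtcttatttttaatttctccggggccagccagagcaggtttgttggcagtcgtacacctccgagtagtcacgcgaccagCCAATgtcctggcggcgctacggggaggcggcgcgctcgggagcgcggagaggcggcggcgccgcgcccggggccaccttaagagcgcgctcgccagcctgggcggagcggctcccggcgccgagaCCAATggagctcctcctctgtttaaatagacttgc
E2f2, chr4:136172024-136172273: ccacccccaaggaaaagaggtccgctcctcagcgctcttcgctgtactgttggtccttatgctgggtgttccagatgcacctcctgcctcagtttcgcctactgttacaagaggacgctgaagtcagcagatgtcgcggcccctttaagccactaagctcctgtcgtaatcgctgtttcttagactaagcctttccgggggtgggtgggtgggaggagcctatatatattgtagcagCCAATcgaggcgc
Faf1, chr4:109676377-109676626: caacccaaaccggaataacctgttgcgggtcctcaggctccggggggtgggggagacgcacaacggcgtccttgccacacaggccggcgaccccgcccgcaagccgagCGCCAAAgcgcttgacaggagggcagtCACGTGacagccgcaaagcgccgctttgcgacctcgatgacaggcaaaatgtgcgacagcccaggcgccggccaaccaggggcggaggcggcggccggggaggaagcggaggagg

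The Ccnd3 window had a peak in every list but inhibitor-treated WT, a combination found at 0.0548% of all windows. At the Cdkn1b start only induced WT and inhibitor-treated WT had a peak (0.195% of all windows). A peak of induced WT alone lay over the E2f2 start (0.289% of all windows). These shares describe how common each combination is and were not used as a test. Most windows have no peak in any list. Among the 2179 windows that have one, 18, 64 and 95 held these combinations, in the same order. The peaks spanned the whole window of 300 bp in each case, and their scores, the authors' own value for a peak, were low or moderate for their lists. They were 74.7, 56.9, 105 and 95.4 at Ccnd3 in uninduced WT, uninduced Mut, induced WT and induced Mut, 64.3 and 93.2 at Cdkn1b in induced WT and inhibitor-treated WT, and 56.4 at E2f2. The lowest score of any list was 50 or just above it.

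**Figure D2:**
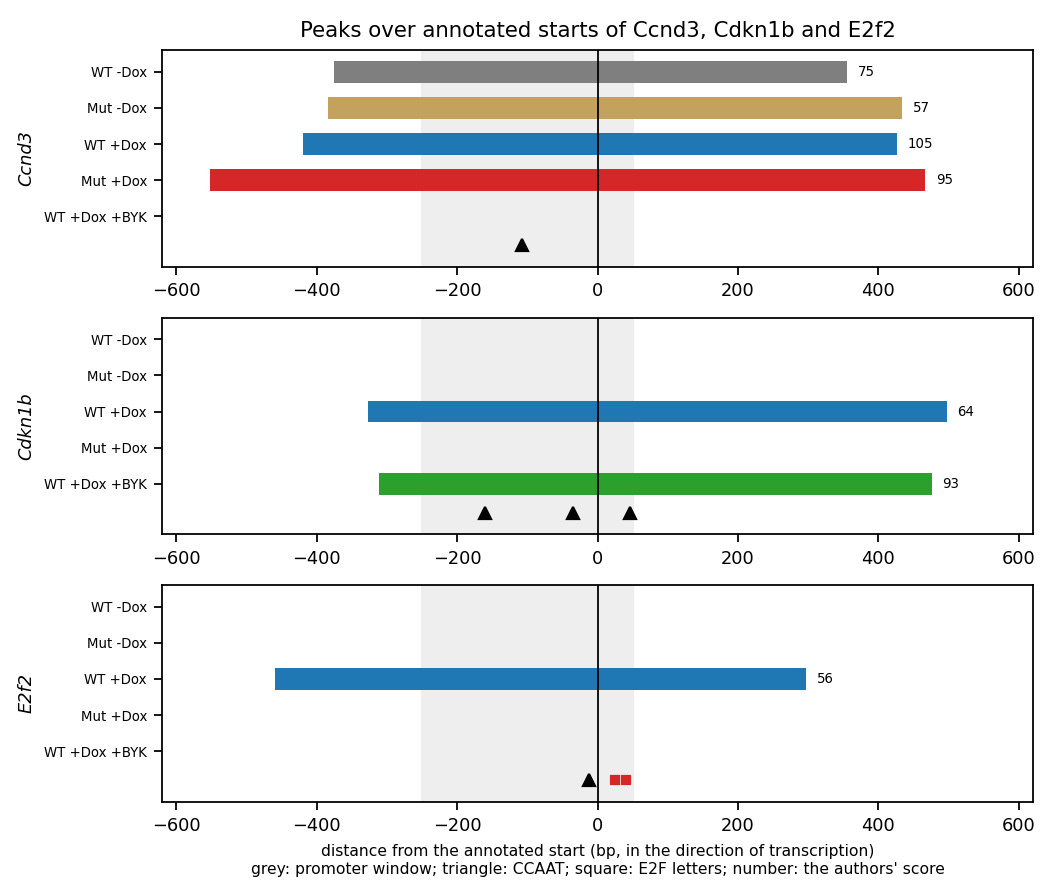
Peaks (bars, 1 row per list, with the authors' score beside them) against the distance from the annotated start in bp, for the starts of Ccnd3, Cdkn1b and E2f2 that lie in a site. The grey band is the promoter window, triangles mark CCAAT and squares the E2F letters; 4 lists have a bar at Ccnd3, 2 at Cdkn1b and 1 at E2f2.

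C/EBP factors prefer the consensus TTGCNNAA, whose palindromic form is TTGCGCAA. Neither was found on either strand in the windows at Ccnd3, Cdkn1b, E2f2 or Faf1, nor in any of the 9 windows of any gene that overlapped one of the 32 sites; 10.8% of all windows hold the first and 0.183% the second. The C/EBP-ATF composite TGATGCAA (0.895% of all windows), the AP-1 motif TGANTCA (7.81%) and the CRE palindrome TGACGTCA (1.79%) were also not found in those 9. CCAAT, the letters of the CCAAT box that is chiefly bound by NF-Y, was found in 4 of the 9 windows and in 37.4% of all; it was added after the sequences were seen. It begins 108 bases before the Ccnd3 start, 161 and 35 bases before the Cdkn1b start and 13 bases before the E2f2 start, and the Cdkn1b window also holds its reverse complement, ATTGG, from position 46 after the start. The E2F letters TTTGGCG occur at positions 25 and 40 after the E2f2 start and, on the reverse strand, 142 bases before the Faf1 start (1.56% of all windows), and CACGTG occurs 115 bases before the Faf1 start and also in the Taf8 window (7.15%). The other E2F form, TTTCGCG, was found in none of the 9 windows (0.849% of all). No matches described here overlapped one another, and the C/EBP palindrome is one case of its consensus. Peaks are wider than these windows, so the letters under the rest of each peak were not read.

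Among the D-type cyclins, which pair with Cdk4 and Cdk6, Ccnd3 (chromosome 17, 47505051 to 47599689) had 6 sites and Ccnd2 (chromosome 6, 127125162 to 127152188) had 4, while Ccnd1 (chromosome 7, 144929931 to 144939831) had 1. Ccnd3 had 5 sites in uninduced WT, 3 in uninduced Mut and 4 in each of the lists with Dox. Its strongest site (47510723 to 47512355) lay inside the gene, 6.49 kb after the first annotated start. The peaks there scored 340.4 in uninduced WT, 309.9 in uninduced Mut, 422 in induced WT, 427 in induced Mut and 367 in inhibitor-treated WT. They stood at percentiles 90.2, 88.5, 95.4, 92.4 and 90.2 of their own lists, so this site was in the upper part of every list. A percentile is the share of the list's peaks that score at or below the peak, with tied scores given their mean rank. Scores and percentiles rank a peak within its list and show no change between lists.

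The other Ccnd3 sites were weaker and more variable in presence. One, at 47501697 to 47502758, was in all 5 lists with scores between 63.3 and 208, but it covered the start of the neighbouring gene Taf8, a subunit gene of the general factor TFIID. The site over the second Ccnd3 start (47592915 to 47593934) and the next one, 1295 bp further (47595230 to 47596137), both lacked a peak in inhibitor-treated WT; the latter also lacked one in uninduced Mut and scored 60.9 in uninduced WT, 125 in induced WT and 88.5 in induced Mut. A site 29.2 kb past the gene had a peak in uninduced WT (77.5) and inhibitor-treated WT (82.5). One inside the gene at 47507884 to 47508537 was found with the inhibitor only, with a score of 70.2.

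At Ccnd2 there were 3 sites in uninduced WT, uninduced Mut and induced WT, 2 in induced Mut and 4 in inhibitor-treated WT. The site at 127132205 to 127133482, inside the gene, scored 251 in uninduced WT, 140.1 in uninduced Mut, 86.7 in induced WT, 109 in induced Mut and 219 in inhibitor-treated WT. It stood at percentile 84.0 of uninduced WT and 42.2 of induced WT. The site at 127150633 to 127152130, 0.806 kb from the nearer gene end, was placed the other way round, with scores of 62.4 in uninduced WT (percentile 18.8), 68.8 in uninduced Mut, 177 in induced WT (percentile 75.6), 144 in induced Mut and 109 in inhibitor-treated WT. Of these 2 sites, the former therefore had the higher score in uninduced WT, uninduced Mut and inhibitor-treated WT and the latter in induced WT and induced Mut. Between them, 887 bp from the latter, the site at 127148776 to 127149745 had a peak in every list but induced Mut, scoring 69.8, 71.5, 91.5 and 52.5 in uninduced WT, uninduced Mut, induced WT and inhibitor-treated WT. It holds 2 annotated starts of the gene 9330179D12Rik, which lie within the Ccnd2 span. The remaining site, 38.2 kb outside Ccnd2 and inside Tigar, had a peak with the inhibitor only (score 162).

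Ccnd1, the D-type cyclin most often linked to growth factor signals, had a single site 1.92 kb outside its span (144941259 to 144942240), with a peak in induced Mut only. Its score of 52.2 stood at percentile 3.66 of that list, close to the lowest score of 50.01. Ccne1, the cyclin partner of Cdk2 (chromosome 7, 38097984 to 38107490), had none within 50 kb. The nearest site lay 70.6 kb away and had peaks in induced Mut and inhibitor-treated WT.

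The Cip/Kip inhibitors each had 4 sites, a number reached by 15.3% of protein-coding genes, and each had at least 1 in all 5 lists. Cdkn1a (chromosome 17, 29090979 to 29100722), which encodes p21, had 2 sites in uninduced WT, uninduced Mut and induced Mut and 3 in induced WT and inhibitor-treated WT. Its site at 29077956 to 29079729, 12.1 kb before the first annotated start, held the highest-scoring peaks of all 10 genes in every list but induced WT. The scores were 836 in uninduced WT, 972 in uninduced Mut, 335 in induced WT, 607 in induced Mut and 809 in inhibitor-treated WT, at percentiles 99.2, 99.7, 92.1, 96.7 and 98.6. In induced WT the peaks of Ccnd3 (422) and Myc (387) scored above it.

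The remaining Cdkn1a sites lay on both sides of the gene and within it. One 27.3 kb before the gene was in every list but induced Mut, with scores of 103, 64.0, 74.2 and 103 in uninduced WT, uninduced Mut, induced WT and inhibitor-treated WT; its nearest gene was Srsf3, which encodes a splicing factor. A site inside Cdkn1a (29094985 to 29095889) had a peak in induced Mut only, with a score of 94.7. Another, inside the neighbour Rab44 and 23.2 kb past the gene, had peaks in induced WT (119) and inhibitor-treated WT (223). The 2 sites of induced Mut at Cdkn1a were thus not the same pair as those of the lists without Dox: they shared the strong upstream site alone. Neither annotated Cdkn1a start lay in a site, the nearer one being 1216 bp from one.

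Cdkn1b (chromosome 6, 134920401 to 134925525), which encodes p27, had 2 sites in each list without Dox and 3 in each list with Dox. The 2 common ones were the site inside the gene at 134923359 to 134924923 and the site 2.50 kb past its end at 134927177 to 134928873. The former scored 189 in uninduced WT, 162 in uninduced Mut, 128 in induced WT, 163 in induced Mut and 244 in inhibitor-treated WT. The latter scored 275, 241, 192, 297 and 247 in the same order, and its peaks in induced WT and induced Mut reached the promoter window of Lockd, a long noncoding RNA gene just downstream of Cdkn1b. All 10 of these peaks stood above percentile 63 of their lists. The additional site was not the same in all lists with Dox: it was the gene's start in induced WT and inhibitor-treated WT, and a site 9.93 kb before the start in induced Mut (score 79.0).

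Cdkn2c (chromosome 4, 109660876 to 109666756), which encodes the INK4 inhibitor p18, had 1 site, in induced Mut (score 109.7) and inhibitor-treated WT (89.8). It lay 9.84 kb before the first annotated start of Cdkn2c and 0.032 kb from the start of Faf1, which it covered. By distance it belongs to Faf1, which encodes a Fas-associated factor.

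Myc (chromosome 15, 61985341 to 61990361) had a strong site in every list. This site, at 61983060 to 61984073 and 1.77 kb outside the span, scored 649 in uninduced WT, 405 in uninduced Mut, 387 in induced WT, 552 in induced Mut and 779 in inhibitor-treated WT. These stood at percentiles 97.9, 92.9, 94.2, 95.8 and 98.4, and ranked second among the sites of the 10 genes in each list. The other Myc site, 2.05 kb beyond the opposite end (61991869 to 61992946), had peaks in uninduced WT (52.4), induced Mut (87.1) and inhibitor-treated WT (95.7) and none in uninduced Mut or induced WT. No other protein-coding gene lay within 50 kb of either.

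E2f2 (chromosome 4, 136172274 to 136196057), an activating E2F factor, was the one gene of the 10 with several sites in the lists with Dox and none in those without. It had 4 sites in induced WT, 4 in induced Mut and 2 in inhibitor-treated WT, and 5 in all, a number reached by 9.36% of protein-coding genes. In induced WT all 4 peaks were weak, with scores of 61.4, 55.8, 50.4 and 56.4, none above percentile 17.7. The first 4 sites in order of coordinate lay 29.3 to 48.9 kb before the gene, and their nearest gene was Id3, an inhibitor of basic helix-loop-helix factors. At the first (136122754 to 136124094) the score was 61.4 in induced WT, 91.6 in induced Mut and 275 in inhibitor-treated WT, and at the one at the Id3 end (136142197 to 136143670), which reached the Id3 promoter window, it was 50.4, 149 and 133. The third had peaks in induced WT (55.8) and induced Mut (103), and the second in induced Mut only (53.5). The fifth was the E2f2 start itself, with a peak in induced WT only. Outside the window, the next site lay 55.0 kb from E2f2 and had a peak in all 5 lists, so the neighbourhood was not free of peaks without Dox.

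Rb1 (chromosome 14, 73192858 to 73325951), whose product binds and restrains E2F factors, is the longest of the 10 genes and had 5 sites: 2 in uninduced WT, 1 in uninduced Mut, 2 in induced WT, 5 in induced Mut and 3 in inhibitor-treated WT. The site at 73327863 to 73328797, 2.38 kb outside the span, was in all lists with scores of 163, 209.5, 173, 199.9 and 115 in the order uninduced WT, uninduced Mut, induced WT, induced Mut and inhibitor-treated WT. A site inside the gene at 73293389 to 73294360 had peaks in the 3 lists with Dox only, with scores of 142 in induced WT, 118 in induced Mut and 140.2 in inhibitor-treated WT, and Rb1 was the one protein-coding gene within 50 kb of it. A further internal site (73209141 to 73209964) scored 63.1 in uninduced WT, 63.4 in induced Mut and 66.4 in inhibitor-treated WT. The remaining 2 were found in induced Mut only, with scores of 64.5 inside the gene and 71.8 at 48.8 kb from it, inside Itm2b. Each stood below percentile 30 of that list.

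**Figure D3:**
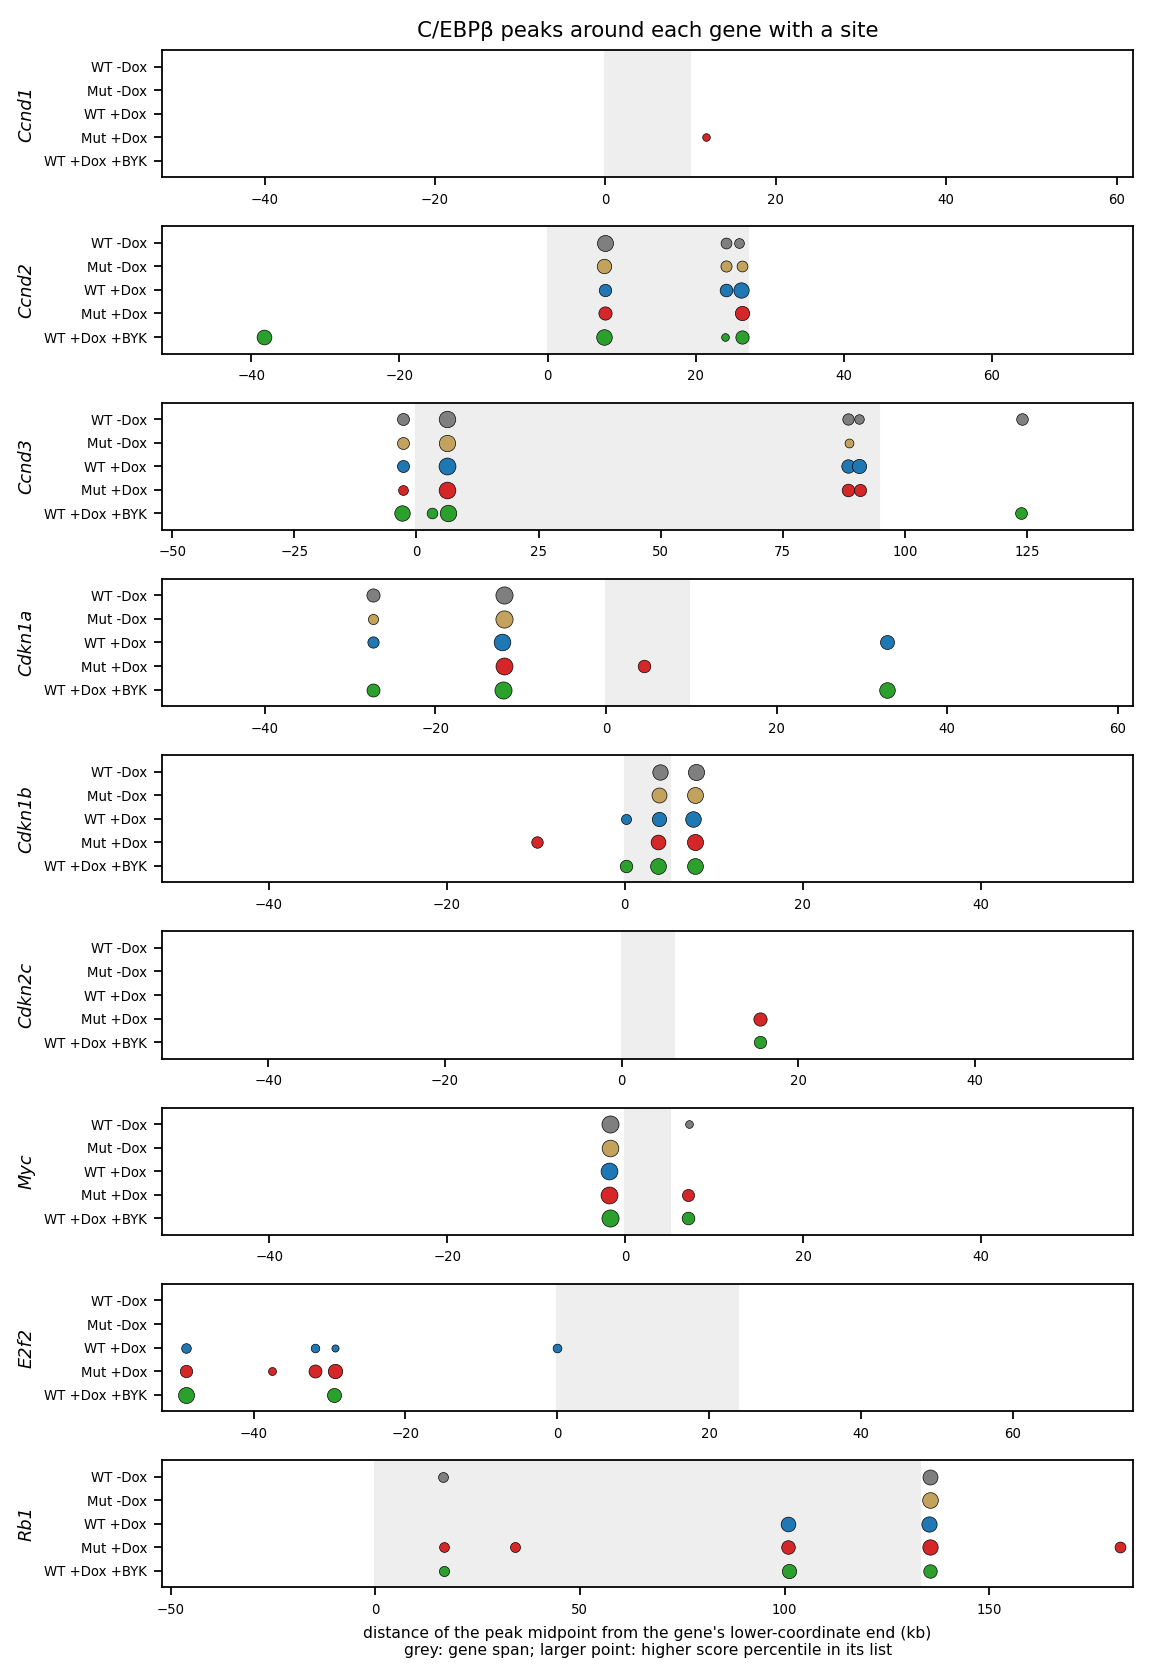
Peaks of the 5 lists (rows, coloured by list) by the distance of their midpoint in kb from the lower-coordinate end of each of the 9 genes with a site; grey marks the gene span and larger points a higher score percentile within the list. The points stack in all 5 rows at 9 sites, at Ccnd2, Ccnd3, Cdkn1a, Cdkn1b, Myc and Rb1, and the E2f2 points lie in the rows with Dox only.

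Peaks at sites present in every list ranked higher than peaks at sites of a single list. There were 9 sites in all 5 lists (28.1%, against 21.8% of all sites), spread over 6 genes: Ccnd2, Ccnd3 and Cdkn1b with 2 each and Cdkn1a, Myc and Rb1 with 1 each. Of their 45 peaks, 38 stood above the median of their own list, and the median percentile was 78.4. A further 9 sites were found in 1 list, 6 of them in induced Mut, 2 in inhibitor-treated WT and 1 in induced WT (28.1%, against 30.7% of all sites). Of these 9 peaks, 1 stood above the median of its list, and the median percentile was 25.9. The same ordering held over the whole series, where peaks of sites in all 5 lists had a median percentile of 76.1 and peaks of sites in 1 list 17.4. Every list stops at a score of 50 or just above, so a weak site can drop out of some lists. An ordering of this kind can follow from that limit alone, which was not tested.

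Sites with peaks in lists with Dox only numbered 16 (50.0%, against 51.5% of all sites), and 7 had peaks in lists of both kinds but not in all 5 (21.9%, against 22.7%). None of the 32 was found only without Dox, where 4.03% of all sites were. Inside the span of the gene they were assigned to lay 13 of the 32, and 3 lay within 1 kb of one of its ends. Of all sites, 48.3% lay inside some protein-coding gene and 8.76% within 1 kb of an end of one. These shares count any gene, so they are not a like measure. Sites inside a neighbour, such as Tigar, Rab44 or Itm2b, are not among the 13. Those at the starts of Taf8 and Faf1 are not among the 3. The median site width was 978 bp, and 926 bp over all sites. Another protein-coding gene lay within 50 kb of 29 of the 32 sites, and the nearest gene was the assigned one for 21.

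**Figure D4:**
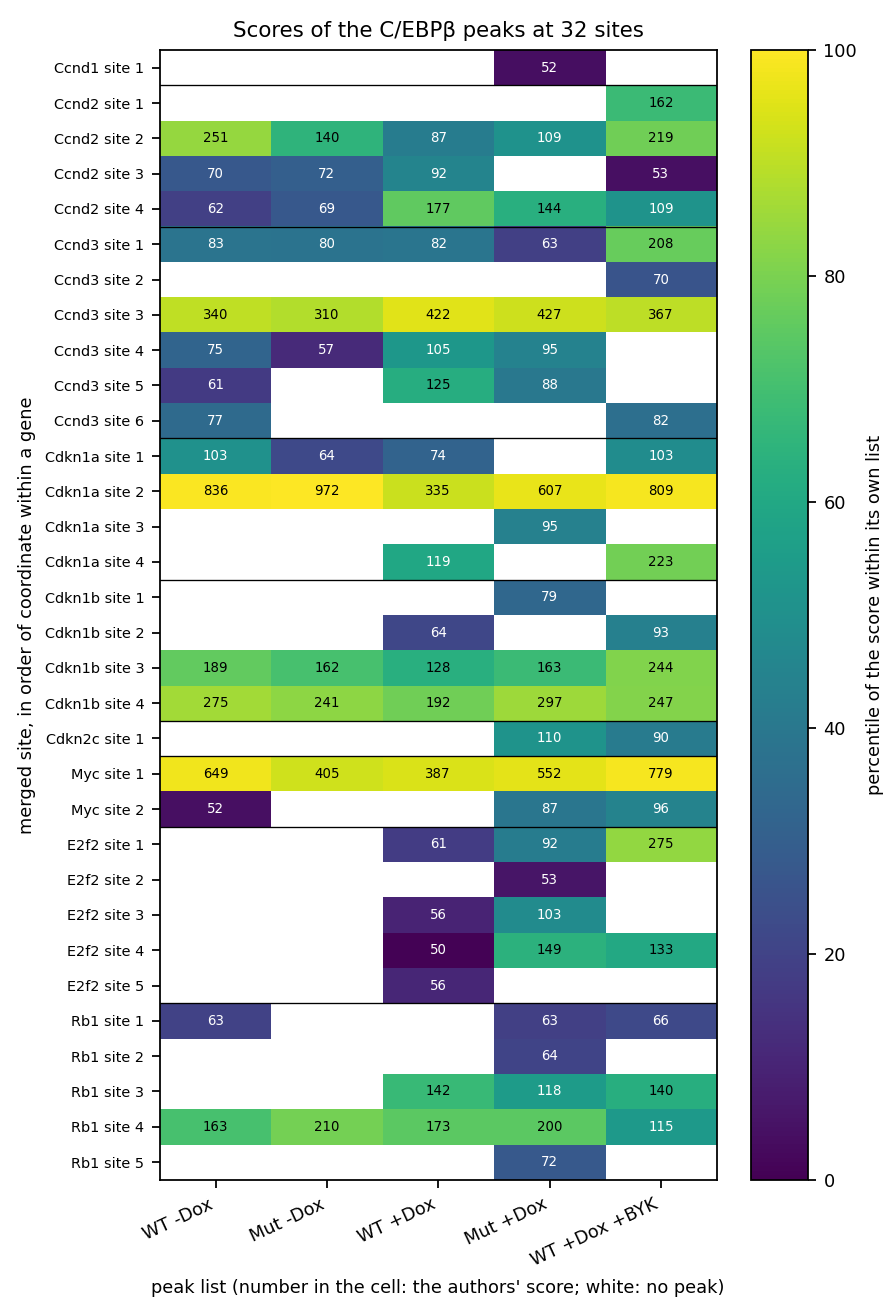
The authors' score of the peak (number) and its percentile within its own list (colour) for each of the 32 sites (rows, grouped by gene) in the 5 lists (columns); white cells have no peak. Bright rows, such as the second Cdkn1a site, the third Ccnd3 site and the first Myc site, are filled in all 5 columns.

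The comparison of WT cells with and without Dox asks where C/EBPβ peaks differ after induction of the wild-type protein. E2f2 had 0 sites without Dox and 4 with it, and Cdkn1a and Cdkn1b had 2 and 3. Ccnd3 had 5 and 4 and Myc 2 and 1, and Ccnd2, Rb1, Ccnd1 and Cdkn2c had equal numbers. At Rb1 these were 2 in each list but not the same 2, as only the site 2.38 kb outside the span was shared. Of the 9 genes with a site, 3 (33.3%) had more and 2 (22.2%) had fewer, where 30.1% of all 13358 protein-coding genes with a site had more and 18.6% had fewer. The median difference was 0 for both sets. With the 6898 highest-scoring peaks of each list, Ccnd2, Ccnd3 and Rb1 had 1 site more with Dox and none of the 10 genes had fewer (22.4% and 23.2% of all genes), and E2f2 had no site in either list. With a window of 10 kb, or by nearest gene, E2f2 had 0 and 1.

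In mutant cells the same comparison gave more sites with Dox at 7 of the 9 genes (77.8%, against 63.5% of all genes) and fewer at 1 (11.1%, against 2.70%). E2f2 had 0 and 4, Rb1 1 and 5, Ccnd3 3 and 4, Cdkn1b 2 and 3, Myc 1 and 2, and Ccnd1 and Cdkn2c 0 and 1. Ccnd2 had 3 and 2, and Cdkn1a 2 in both, though not the same 2. The median difference was 1 site per gene, the same as over all genes. The uninduced Mut list is the shortest and induced Mut the second longest. With 6898 peaks from each, 1 gene (E2f2, 0 and 1) had more sites and 3 had fewer, and Ccnd3 then had 3 and 1; over all genes, 19.6% had more and 28.7% fewer at that setting. With a window of 10 kb, or when sites went to the nearest gene alone, E2f2 had 0 sites in both Mut lists.

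The induced Mut list was set against induced WT to ask whether the sites differ when the induced protein carries mutated PARylation sites. Rb1 had 2 sites in induced WT and 5 in induced Mut, Myc 1 and 2, and Ccnd1 and Cdkn2c 0 and 1. Ccnd2 had 3 and 2 and Cdkn1a 3 and 2. Ccnd3, Cdkn1b and E2f2 had equal numbers, but at Cdkn1b and E2f2 not the same sites: the start of each had a peak in induced WT and none in induced Mut. More sites were found at 4 of 9 genes (44.4%, against 40.6% of all genes) and fewer at 2 (22.2%, against 12.2%). With 6898 peaks from each list, 1 gene had more and 4 had fewer (14.5% and 23.7% of all genes), and Rb1 had 2 and 1. Cdkn1a had 1 site more in induced Mut when the window was 10 kb or when each site was given to its nearest gene.

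The inhibitor comparison asks whether the sites differ within the WT line when an inhibitor of PARP enzymes is given before Dox. Ccnd2 had 3 sites in induced WT and 4 in inhibitor-treated WT, Cdkn2c 0 and 1, Myc 1 and 2, and Rb1 2 and 3. E2f2 had 4 and 2, and Cdkn1a, Cdkn1b, Ccnd3 and Ccnd1 had equal numbers, with 4 sites each at Ccnd3 of which 2 were the same. More sites were found at 4 of 9 genes (44.4%, against 49.0% of all genes) and fewer at 1 (11.1%, against 8.29%). With 6898 peaks from each list, 1 gene had more and 2 had fewer (17.5% and 19.7% of all genes), and E2f2 had 0 and 1 and Rb1 2 and 1. The induced WT list enters this comparison and those with uninduced WT and induced Mut, which are therefore not independent.

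**Figure D5:**
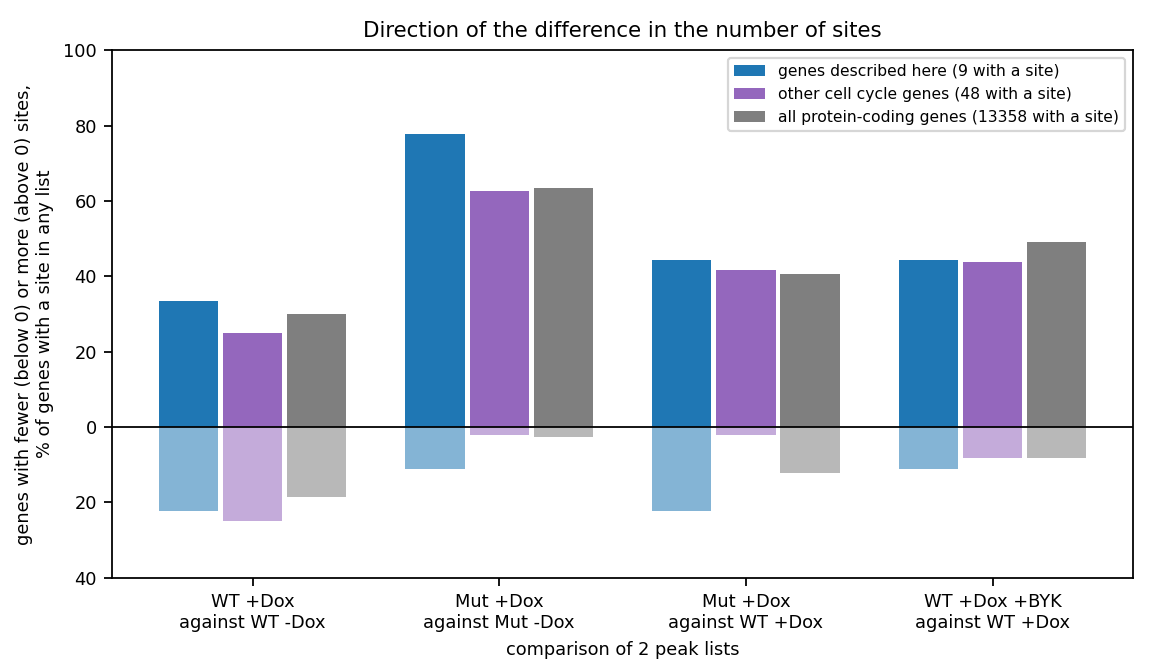
Share of genes with more sites (above 0) and with fewer sites (below 0, paler) in the first-named list, in percent of genes with a site in any list, for the genes described here, the other cell cycle genes and all protein-coding genes, in 4 comparisons. The bars of the 9 genes with a site rest on single-digit counts, for example 7 genes with more and 1 with fewer in the mutant line with Dox.

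A list of 64 other cell cycle genes was counted in the same way, and 48 of them had a site. Cdk6, the kinase partner of D-type cyclins, had the most: 2 in uninduced WT, 1 in uninduced Mut, 6 in induced WT, 7 in induced Mut and 4 in inhibitor-treated WT, out of 9. Mxi1, which encodes an antagonist of Myc, had 1, 2, 6, 3 and 4 in the same order, and Btg1, an antiproliferative gene, 2, 2, 5, 5 and 4. Ccng2, an atypical cyclin gene, had 5 in every list, and Aurkb, which encodes a mitotic kinase, had 3, 3, 3, 4 and 4.

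With Dox in WT cells 12 of the 48 genes had more sites and 12 had fewer, including Mcm2, a subunit of the replicative helicase (4 and 2), Cks1b (3 and 2) and Bub1 (2 and 1). In mutant cells 30 had more, among them Fbxw7, the ubiquitin ligase subunit that recognises cyclin E and Myc (1 and 5), and 1 had fewer, Ccnf (1 and 0). The induced Mut list had more sites than induced WT at 20 genes, such as Fbxw7 (3 and 5), Tfdp1, an E2F partner (1 and 3), and Wee1, an inhibitory kinase of Cdk1 (0 and 2), and fewer at 1, Mxi1 (6 and 3). The inhibitor list had more than induced WT at 21, such as the repressor gene E2f6 (3 and 5), the phosphatase gene Cdc25c (0 and 2) and Cdkn3 (0 and 2), and fewer at 4: Btg1, Cdc25a, Cdk6 and Mxi1. The shares with more sites were 25%, 62.5%, 41.7% and 43.8% in the 4 comparisons, in the order given. Over all genes they were 30.1%, 63.5%, 40.6% and 49.0%. The shares with fewer sites were 25%, 2.08%, 2.08% and 8.33%, against 18.6%, 2.70%, 12.2% and 8.29% over all genes.

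At the limit of the 50 kb window, the farthest sites inside it were 48.9 kb from E2f2 and 48.8 kb from Rb1, and the nearest outside it were 50.9 kb from Cdkn2c (3 lists) and 55.0 kb from E2f2 (5 lists). With a window of 100 kb all 10 genes had a site, Ccne1 with 1 in uninduced WT, uninduced Mut and induced WT and 2 in the other 2 lists.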

How the data were processed

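C/EBPβ ChIP and input DNA of 5 conditions were sequenced, with 20 libraries in 10 groups of 2. Bowtie, bedtools and the build mm10 are named, without versions, per the submitters' processing notes. Per the deposited files, peak names begin with MACS. Which version and threshold the caller had, whether input was used and how the replicate libraries entered a list is not given in the sources used here. The deposited lists give 1 score per peak, the authors' own value on a scale that no header names. It was used only to rank or filter peaks within a list. Depth is unknown.

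Peaks of all lists were merged at 1 bp overlap. Gene spans came from RefSeq (GRCm38.p6), and coordinates are 1-based. For each list, a gene's count is the number of sites to which that list contributed a peak with its midpoint within 50 kb of the span. Where the planned distance from a start needed a strand, it came from the RefSeq promoter table, otherwise the nearer gene end was used; exon, intron and UTR classes were not analysed here. Motif letters were searched on both strands of the promoter windows of 300 bp. The members and the gene list were chosen with earlier results of these data known. Named genes were all 10 members, neighbours that share a site, and, of the 64 other genes, the 5 with the most sites and up to 3 with the greatest surplus and deficit per comparison, with ties broken by number of sites and then by name (E2f6 and Fbxw7 tied with the last 3 of the 5). On simulated peaks planted at 200 of 21887 genes, site numbers in 5 lists were recovered at all 200. These were drawn from genes with no other gene nearby, so the check does not cover sites that neighbouring genes share. Alternatives changed the window, gene assignment, list length, overlap and score. Python 3.11.15, numpy 2.4.6, pandas 2.3.3 and matplotlib 3.10.9 were used.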

Additional observations from a re-analysis of the deposited data

Results flagged for a closer look

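At Ccnd3 and Myc the number of sites differed with Dox in opposite directions in the 2 lines. Ccnd3 had 5 sites without and 4 with Dox in WT cells, and 3 and 4 in mutant cells, so the change in Mut minus that in WT was 2. For Myc the numbers were 2 and 1 in WT cells and 1 and 2 in mutant cells, again a difference of 2. With 1 list per condition these differences were not tested. The Myc site concerned scored 52.4 in uninduced WT, whose lowest score was 50.02, and 87.1 in induced Mut. With the 6898 highest-scoring peaks of each list, Myc had 1 site in every list, and Ccnd3 had 2 and 3 in WT cells and 3 and 1 in mutant cells, which is the opposite of the directions above. With a window of 10 kb Ccnd3 had 4 and 4 in WT cells, and by nearest gene 3 and 3. Scores above 100 left Ccnd3 with 1 and 3 in WT cells and 1 and 1 in mutant cells, and Myc with 1 site in every list. With a window of 100 kb Myc had 4 and 4 in WT cells and 3 and 5 in mutant cells. The opposite directions held for Ccnd3 with 100 kb, and for Myc with 10 kb and by nearest gene.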

How the results depend on the processing

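Merging peaks only where they overlapped by at least 50% of the shorter one left all counts of the 10 genes as they were. With a window of 10 kb, 1 gene had fewer sites in induced WT than in uninduced WT (15.9% of all genes) and 2 had fewer with the inhibitor (7.71%). With 100 kb the sites numbered 33 in uninduced WT, 23 in uninduced Mut, 34 in induced WT, 43 in induced Mut, 42 in inhibitor-treated WT and 55 in all. Sites given to the nearest gene numbered 21 in all and 14 in inhibitor-treated WT, with 1 gene having fewer in induced WT than in uninduced WT (16.7% of all genes), and 2 genes more and 2 fewer with the inhibitor (45.4% and 6.96%). Cdkn1a differed by 1 in induced Mut against induced WT, not by -1, under both 10 kb and nearest gene.

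Lists of equal length left 9, 12, 8 and 11 sites in uninduced WT, induced WT, induced Mut and inhibitor-treated WT and 18 in all. The genes with more and fewer sites were then 3 and 0 with Dox in WT cells, 1 and 3 with Dox in mutant cells, 1 and 4 in induced Mut against induced WT and 1 and 2 with the inhibitor. Over all genes the shares with more and fewer were 22.4% and 23.2%, 19.6% and 28.7%, 14.5% and 23.7%, and 17.5% and 19.7%. These shares all leaned towards fewer, those with Dox in WT cells only slightly. The genes described here leaned the same way except with Dox in WT cells, where 3 had more and 0 fewer. Differences of opposite sign were 1 for Ccnd3 with Dox in WT cells, -2 for Ccnd3 in mutant cells, -1 for Rb1 in induced Mut against induced WT and, with the inhibitor, 1 for E2f2 and -1 for Rb1. This setting keeps fewer peaks of the longer lists by construction.

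Scores above 100 left 8, 7, 11, 12 and 15 sites in uninduced WT, uninduced Mut, induced WT, induced Mut and inhibitor-treated WT and 19 in all. With Dox, 0 genes then had fewer in WT cells (16.2% of all genes). In mutant cells 4 had more and 0 fewer (57.3% and 2.42%). Signs turned for Ccnd3 with Dox in WT cells (2), for Ccnd2 with Dox in mutant cells (1) and in induced Mut against induced WT (1), and for E2f2 with the inhibitor (2). The cause of these shifts was not tested. Of all counts and settings, 51 stayed within 1.5 times the main value and 33 did not; of the differences at single genes, 71 were equal, 62 had another size and 11 turned sign. No paired analysis was possible because each condition has 1 list that carries no replicate number, and for the same reason no replicate could be left out.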

Other observations

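Several neighbours share the sites described above, and each has its own total within 50 kb. Tigar, a p53 target that lowers glycolysis, shared all 4 Ccnd2 sites and had 7 sites in uninduced WT, 6 in uninduced Mut, 6 in induced WT, 5 in induced Mut and 7 in inhibitor-treated WT. Id3 shared all 5 E2f2 sites and had 1, 1, 5, 5 and 3 in the same order. Itm2b, next to Rb1, had 4, 3, 4, 5 and 5. Crebl2, a bZIP family gene beside Cdkn1b, had 2, 2, 3, 3 and 4. Lpar6, a receptor gene that shares 2 of the Rb1 sites, had 1, 0, 0, 2 and 1. Crebl2 and Lpar6 were named after their values were seen.

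The 23 gaps between neighbouring sites of a gene ran from 887 to 80559 bp, with a median of 13703 bp. Among the short ones, 887 bp separated the last 2 Ccnd2 sites, 1189 bp the 2 E2f2 sites nearest to Id3, 1295 bp the Ccnd3 site over a start and the next one and 2253 bp the last 2 Cdkn1b sites. Neighbouring sites of 1 region are not independent observations. The promoter windows before the starts of Ccnd3, Cdkn1b and Faf1 had 64.8%, 64.4% and 69.2% G and C in their 250 bases, and that of E2f2 55.2%, against a median of 52.4% over all windows. The remaining windows that overlapped a site lay on both sides of that median. They had 51.6% and 58.4% at 9330179D12Rik, 62.8% at Id3, 50% at Lockd and 56.4% at Taf8.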
